A study of Homo sapiens with 2 samples.

Results

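Ligand genes for receptors of immune cells were described in SAS cells, a human line established from tongue squamous carcinoma, in which COL17A1 had been knocked down by siRNA. The 10 genes are NCR3LG1, MICA, MICB, ULBP1, ULBP2, ULBP3, CD274, PDCD1LG2, CD276 and PVR. They were taken by symbol from a table of 61806 genes, each matched 1 row, and all 10 were among the 13375 genes whose mean level reached 1 CPM (counts scaled to library size) and which were tested. The group was chosen by the log2 ratio of NCR3LG1 in this same comparison, with the other 9 added as its family context, so the values are a description. The knockdown group is 1 library of cells given COL17A1 siRNA sequence number 2, and the control group is 1 library of cells given negative control siRNA. Both groups were labelled as wild type in genotype, and RNA was taken 48 hours after lipid transfection in both. A single siRNA sequence and 1 library per group stand for the knockdown, so no difference has a replicate check and no p-value is given. In RNA of whole cultures, fewer cells that make a transcript and less transcript per cell cannot be told apart.

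These ligands sit on the surface of stressed, infected or transformed cells and are read by lymphocytes. MICA, MICB and the ULBP proteins bind NKG2D, an activating receptor of natural killer (NK) cells and cytotoxic T cells, while NCR3LG1, also called B7-H6, binds the activating receptor NKp30. PVR (CD155) is bound by the activating receptor DNAM-1 and by the inhibitory receptor TIGIT. CD274 (PD-L1) and PDCD1LG2 (PD-L2) bind PD-1 and restrain T cells, and CD276 (B7-H3) is a further member of the B7 family, with a receptor that is less settled.

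The knockdown library held 21601195 counts and the control library 15980152. COL17A1 itself had 411 counts in the knockdown library and 3116 in the control library, 10.5-fold lower after scaling, as the labels say. Values below are log2 ratios of counts scaled by trimmed mean of M-values (TMM), knockdown over control, with an exact 95% interval in brackets that covers counting error only. A gene was called higher or lower where the ratio reached 1.5-fold, or 0.58 in log2 size, and the interval excluded 0. Epithelial markers were present in both libraries, with EPCAM at 146 FPKM in the knockdown library and 138 in the control library. Of 8 leukocyte markers 4, among them PTPRC (CD45) and CD3E, had 0 counts in both, and the 8 summed to 3.38 FPKM in the knockdown library and 2.01 in the control library, nearly all from CD14. None of the 9 genes for receptors of these ligands was tested, and together they had 25 counts in the knockdown library and 19 in the control library.

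Among the 10 ligand genes ULBP2 and MICA were called higher, NCR3LG1 was called lower, and 7 were called neither. Of all tested genes 12.2% were called higher and 11.7% lower. NCR3LG1, by whose low ratio the group was chosen, could not be called higher, so the 2 higher genes count among the other ligand genes. With so few genes, these 2 are not read as departing from the first share. The lower call of NCR3LG1 was set by the choice of the group, so it is not read against the second share. Each of the other ligand genes was called higher or neither. At 2-fold, ULBP2 was higher, against 3.04% of all tested genes. NCR3LG1 was lower at 2-fold, against 3.6%, again by that choice. With NCR3LG1 included, the log2 ratios ran from -3.03 to 1.01 with 5 above and 5 below 0. Their median was 0.01 beside 0.03 for all tested genes. The interval of 1 gene, PDCD1LG2, included 0.

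**Figure D1:**
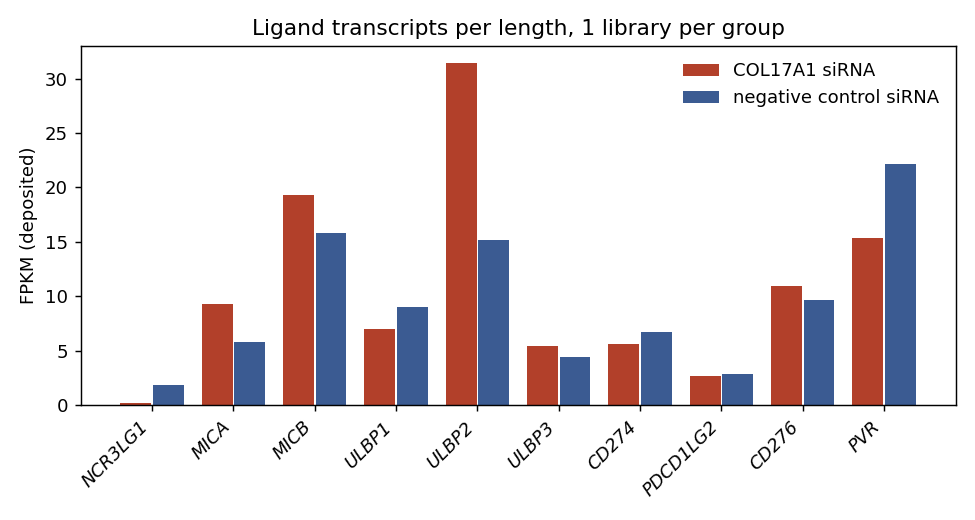
Deposited FPKM (counts relative to exonic size and library total) of the 10 ligand genes, with the COL17A1 siRNA library in red and the negative control library in blue, 1 library each. ULBP2 was highest in the knockdown library at 31.4 and PVR was highest in the control library at 22.2, while NCR3LG1 was lowest in both.

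NCR3LG1 had 31 counts in the knockdown library and 185 in the control library. Per length this was 0.23 FPKM in the knockdown library and 1.82 in the control library, the lowest of the 10 genes in each. The log2 ratio was -3.03 [-3.65 to -2.50], or 8.18-fold lower, and the gene ranked 5 from the lowest of 13375. Its locus lies on GRCh38 chromosome 11 at 17351800 to 17377341, plus strand, and overlaps KCNJ11 on the opposite strand, a potassium channel gene with 11 counts in the knockdown library and 6 in the control library. None of the 100-base stretches of its annotated transcripts occurs in a transcript of another gene. The nearest tested gene on one side, NUCB2, a calcium-binding protein gene 1820 bases away, was at 0.10 [-0.08 to 0.30]. The uncharacterised gene on the other side, 3308 bases away, was at 0.20 [-0.30 to 0.73] on 85 counts in the knockdown library and 53 in the control library.

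The genes whose log2 ratios lay closest to that of NCR3LG1 were sought among the 10653 genes that averaged 5 CPM or more, over 2 libraries only. On the lower side were COL17A1, 0.36 below, RRP7A, a ribosomal RNA processing factor, 0.48 below, and HSP90B1, an endoplasmic reticulum chaperone, 0.82 below. Of the 3 on the upper side, the kinase gene STK26 lay 0.15 above and PRRC2C 0.16 above, and 1 is not reported here. The ratios of COL17A1, RRP7A, STK26 and PRRC2C lay inside the counting interval of NCR3LG1, and that of HSP90B1, at -3.85, lay below it.

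**Figure D2:**
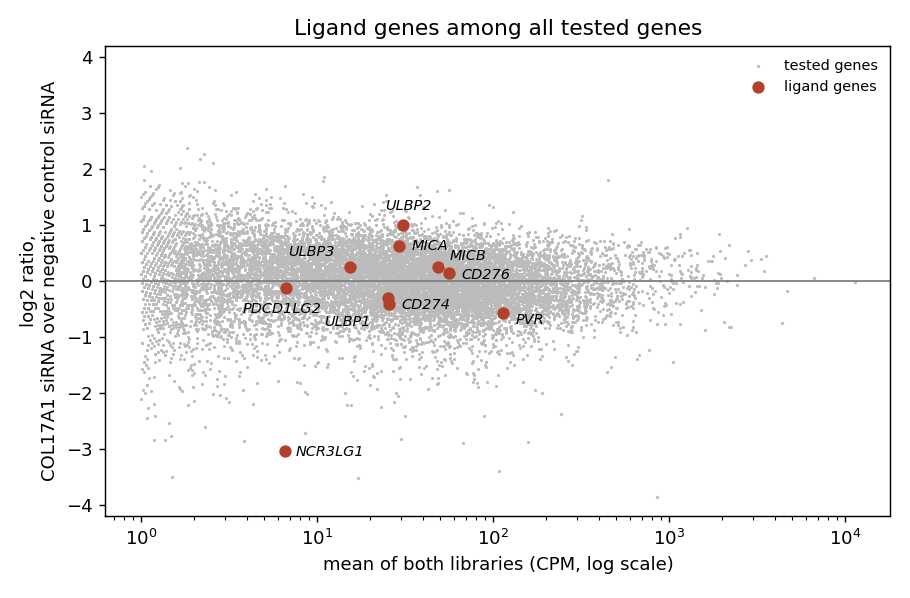
Log2 ratio (knockdown over control) against the mean of both libraries in CPM on a log scale, with tested genes in grey and the 10 ligand genes in red. NCR3LG1 lies apart at -3.03, and the other ligand genes lie between -0.57 and 1.01 inside the cloud of tested genes.

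The NKG2D ligands differed among themselves. ULBP2, a GPI-anchored ligand, had 906 counts (31.4 FPKM) in the knockdown library and 324 counts (15.2 FPKM) in the control library, at a log2 ratio of 1.01 [0.83 to 1.20]. It was the highest of the 10 genes, with 97.1% of tested genes below it. MICA, a transmembrane ligand encoded beside the HLA class I genes, had 773 counts (9.29 FPKM) in the knockdown library and 360 counts (5.85 FPKM) in the control library, at 0.63 [0.45 to 0.81]. These were the 2 genes called higher. After adjustment for exonic size, GC content and abundance ULBP2 was at 0.72 and MICA at 0.41, so that MICA then lay under 1.5-fold.

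MICB, its close paralog, had 1164 counts (19.3 FPKM) in the knockdown library and 705 counts (15.8 FPKM) in the control library, at 0.25 [0.11 to 0.39]. The interval of MICB lay below that of MICA. ULBP3 had 368 counts (5.48 FPKM) in the knockdown library and 221 counts (4.45 FPKM) in the control library, at 0.26 [0.02 to 0.51]. Neither gene reached 1.5-fold. ULBP1 alone of these 5 NKG2D ligands had a ratio below 0, with 484 counts (6.98 FPKM) in the knockdown library and 463 counts (9.02 FPKM) in the control library, at -0.41 [-0.60 to -0.22], under 1.5-fold.

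Summed over MICA, MICB, ULBP1, ULBP2 and ULBP3, the level was 72.4 FPKM in the knockdown library and 50.3 FPKM in the control library. Their summed counts, 3695 in the knockdown library and 2073 in the control library, gave a log2 ratio of 0.36 [0.28 to 0.44]. The make-up of that sum differed between the libraries. ULBP2 made up 43.4% of the summed FPKM in the knockdown library and 30.2% in the control library, and ULBP1 made up 9.64% in the knockdown library and 17.9% in the control library. MICB took 26.6% in the knockdown library and 31.4% in the control library, where it was the largest part. These shares rest on the deposited exonic sizes. For ULBP3 that size is 3111 bases, while its longest annotated coding transcript has 988, and for ULBP2 these are 1335 and 1349. Another choice of length would change the shares.

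The ULBP genes share a cluster with the RAET1 genes, their paralogs, on chromosome 6 between 149883179 and 150069121, and values within the cluster went both ways. RAET1G, the tested gene next to ULBP2, was at 0.87 [0.32 to 1.46] on 97 counts in the knockdown library and 38 in the control library and was called higher. RAET1E, at the end of the cluster, was at -0.73 [-1.33 to -0.14] on 46 counts in the knockdown library and 55 in the control library and was called lower. After adjustment for size, GC content and abundance RAET1G was at 0.34, under 1.5-fold, and by deposited FPKM RAET1E was at -0.54, also under it. RAET1L, with 19 counts in the knockdown library and 8 in the control library, lay under the limit of 1 CPM. Of the 100-base stretches of ULBP2, 11.9% also occur in RAET1L or RAET1G, of ULBP3 6.86% occur in the pseudogene RAET1K, and of ULBP1 1.15% do, so counts of these genes are uncertain; the number of reads this touches is unknown. MICA and MICB had no such shared stretch. ULBP2 and ULBP1 lie 14708 bases apart on the same strand, and their intervals did not overlap.

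**Figure D3:**
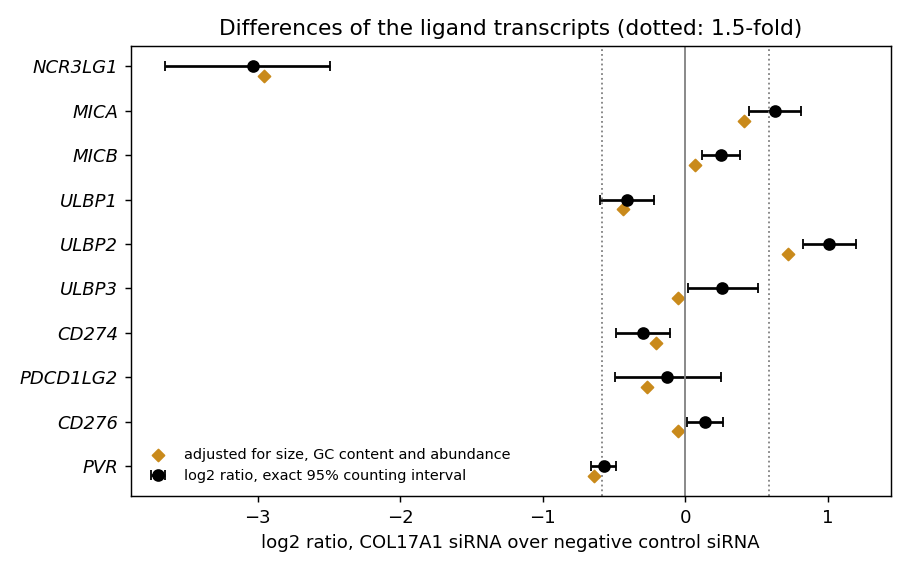
Log2 ratios (knockdown over control) of the 10 ligand genes as black points with exact 95% counting intervals, and as orange diamonds after adjustment for exonic size, GC content and abundance; dotted lines mark 1.5-fold. NCR3LG1 and ULBP2 lie past 1.5-fold with and without the adjustment, MICA without it, and PVR with it.

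The checkpoint ligands CD274, PDCD1LG2 and CD276 were called neither higher nor lower. CD274 had 500 counts (5.63 FPKM) in the knockdown library and 442 counts (6.73 FPKM) in the control library, at -0.30 [-0.48 to -0.11]. PDCD1LG2, its neighbour 39965 bases away on chromosome 9, had 140 counts (2.66 FPKM) in the knockdown library and 110 counts (2.83 FPKM) in the control library, at -0.13 [-0.50 to 0.25], where no difference was detectable at this depth. Summed, the counts of these PD-1 ligands gave -0.26 [-0.43 to -0.09]. Both loci overlap an uncharacterised gene on the opposite strand with 25 counts in the knockdown library and 22 in the control library. CD276, on chromosome 15 at 73683966 to 73714514, had 1292 counts (10.9 FPKM) in the knockdown library and 845 counts (9.65 FPKM) in the control library, at 0.14 [0.01 to 0.27]. CD276 was thus the most abundant of these B7 proteins' transcripts per length in both libraries, and all 3 were under 1.5-fold.

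PVR had 2018 counts (15.3 FPKM) in the knockdown library and 2161 counts (22.2 FPKM) in the control library, at -0.57 [-0.66 to -0.48]. At 1.49-fold lower it lay just short of the 1.5-fold rule, and scaling by DESeq2 size factors or adjustment for size, GC content and abundance placed it past the rule. Its 3' end overlaps CEACAM19 on the same strand, a gene at 0.14 [-0.22 to 0.52] with 158 counts in the knockdown library and 103 in the control library, and 0.604% of the 100-base stretches of PVR are shared with it. By FPKM, PVR lay behind ULBP2 and MICB in the knockdown library, and was the most abundant of the 10 genes in the control library. The deposited exonic size of PVR is 6098 bases, while its longest annotated coding transcript has 3325. For MICB these are 2798 and 2446 bases, so an order between genes can depend on the length used.

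A 7-base word, GCTAATG, had been picked out in these same data because genes that hold it in the 3' UTR were lower in the knockdown library. It is shown here because it occurs in NCR3LG1 and in other ligand genes with ratios below 0, and also in COL17A1. Of the 10 genes, 4 hold the word in the longest annotated coding transcript, the only one searched for each gene (GENCODE release 29, GRCh38). Each holds it at 1 place, shown 5′ to 3′ with 10 bases on each side and the word in capitals. In NCR3LG1 (chr11:17375604-17375610, plus strand, exon 5 of 5) and ULBP1 (chr6:149971611-149971617, plus strand, exon 5 of 5) it lies in the 3' UTR, and in PVR (chr19:44661315-44661321, plus strand, exon 7 of 8) and PDCD1LG2 (chr9:5522561-5522567, plus strand, exon 2 of 7) in the coding part. COL17A1 holds it at 2 places in its coding part, in exon 15 of 56 (chr10:104059638-104059644) and exon 18 (chr10:104055798-104055804), minus strand. After the word, the stretch from exon 15 of COL17A1 runs across a splice junction into exon 16. That of PVR likewise runs from exon 7 into exon 8.
NCR3LG1: cttcctcaccGCTAATGggtcttgcat
ULBP1: ttctgtcggtGCTAATGgatggaactc
PVR: cagcgcctcaGCTAATGggcatgtctc
PDCD1LG2: tcttcctcctGCTAATGttgagcctgg
COL17A1, exon 15: aaaagccgaaGCTAATGgagacctgaa
COL17A1, exon 18: tgaggaagaaGCTAATGatggaacagg

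The 4 ligand genes with the word had log2 ratios below 0, from -3.03 to -0.13 with a median of -0.49. Of the 6 without it, MICA, MICB, ULBP2, ULBP3 and CD276 lay above 0 and CD274 below, from -0.30 to 1.01 with a median of 0.25. The unbroken run shared with the first COL17A1 site was 8 bases in NCR3LG1 (GCTAATGG), 9 in ULBP1 (GCTAATGGA), 9 in PVR (AGCTAATGG) and 7 in PDCD1LG2. With the second site it was 8 bases in PVR (AGCTAATG) and 7 in NCR3LG1, ULBP1 and PDCD1LG2. Each run was sought around the word, so 7 bases were shared by choice. Of the 27 bases shown, word included, those identical to the first site numbered 10 in NCR3LG1, 12 in ULBP1, 15 in PVR and 11 in PDCD1LG2. For the second site the numbers were 7 in NCR3LG1, 12 in ULBP1, 9 in PVR and 13 in PDCD1LG2. In NCR3LG1 no base outside the word matched the second site. Among 981 tested genes with the word in the 3' UTR 37.7% were called lower and 4.38% higher, with a median of -0.41. Among 738 genes with it in the coding part only 30.9% were called lower and 2.03% higher, with a median of -0.40. Among 9891 genes with it in neither 7.65% were called lower and 12.7% higher, with a median of 0.07. Tested genes with no annotated coding transcript or a very short 3' UTR were left out of these classes. The median 3' UTR length was 3485 bases for the first class, 1419 bases for the second and 1233 bases for genes without the word. After adjustment for size, GC content and abundance the median log2 ratios of the 3 classes were -0.23, -0.21 and 0.03. Because the word was found in these libraries, these shares and the split of the ligand genes by the word are a description. NCR3LG1, at -3.03, is also the gene by which the group was chosen. The siRNA sequence is not given in the sources used here, and the part of the word in any of these differences was not tested.

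**Figure D4:**
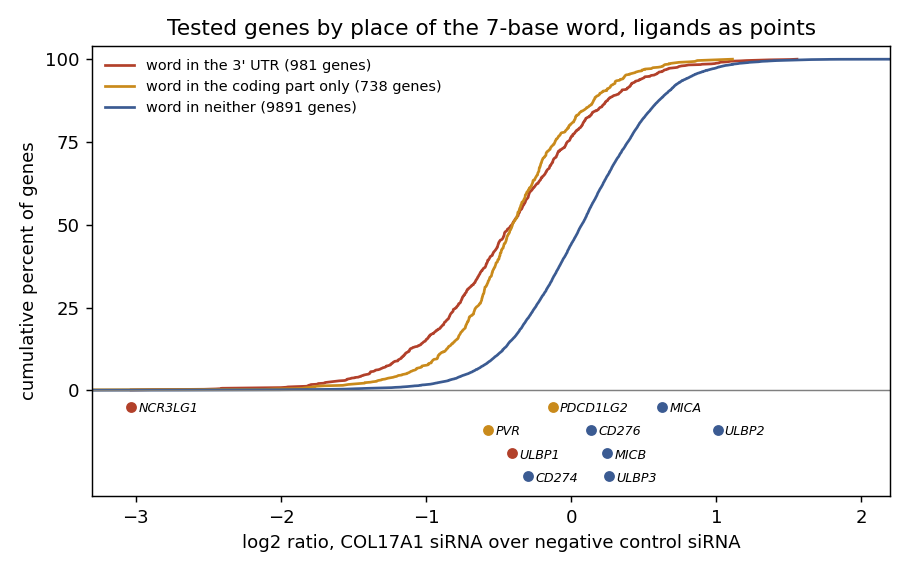
Cumulative percent of tested genes by log2 ratio (knockdown over control), for genes with the 7-base word in the 3' UTR (red), in the coding part only (orange) or in neither (blue); points under the axis are the 10 ligand genes in the same colours, set at several heights for legibility. Both curves of genes with the word lie left of the blue one, and the 4 ligand genes with the word lie left of 0. The word was picked in these same data, so both are a description.

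Promoters of 9 of the 10 genes (250 bases before to 50 after the start, RefSeq, GRCh38.p14) were searched on both strands for 8 motifs of factors linked to stress, interferon and hypoxia. The heat shock element GAANNTTC, the site of heat shock factors, stood in MICA and MICB and in 6.77% of all 35116 promoters. These are the paralogs whose promoters are known for heat shock control, and the sites are printed with the motif in capitals to show how alike they are.
MICA (chr6:31403450-31403477, plus strand): cagcccactgGAATTTTCtcttccaagc
MICB (chr6:31497996-31498023, plus strand): caggccgctaGAATTTTCtcttctgaac
Both carry the same motif letters at 135 and 139 bases before the RefSeq start, which in both genes lies inside the deposited locus. MICA was at 0.63 and MICB at 0.25. The heat shock factor gene HSF1 was at 0.47 [0.40 to 0.54], under 1.5-fold, with 4731 counts in the knockdown library and 2456 in the control library. A part of this element in these ratios was not tested. The interferon response element of the IRF factors stood in CD274 alone of the 9 genes, at 2 overlapping places on the reverse strand, and in 3.57% of all promoters, and the gamma-activated site TTCNNNGAA likewise in CD274 and in 7.66%. The first of the overlapping matches is printed because the interferon regulator gene IRF1 was among the genes called higher.
CD274 (chr9:5450324-5450353, plus strand): gactgacatgTTTCACTTTCtgtttcattt
CD274 was at -0.30, and IRF1, which binds such elements, was at 0.67 [0.57 to 0.76] with 2890 counts in the knockdown library and 1312 in the control library. The AP-1 site TGANTCA stood in ULBP2 and ULBP3 (7.71% of all), the ATF4 composite site TGATGNAA in ULBP2 (3.62%) and the hypoxia core ACGTG in MICB, ULBP3 and CD276 (21.4%). The E-box CACGTG (7.26%) and the NF-kB site GGAANTTCC (0.965%) stood in none of the 9 windows. A match of letters is a description and not a site of binding.

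The wider setting was given by 13 lists of related genes, and 76 of their genes other than the 10 were tested. Of these 76, 8 were called higher and 8 lower, with a median of 0.12 beside 0.03 for all tested genes. These shares lie near the 12.2% higher and 11.7% lower of all tested genes. The lists below are small, so 1 or 2 called genes in a list are not read as a result about it. Among other ligands of NK cells, CLEC2B, the ligand of NKp80, was at 1.04 [0.70 to 1.40] with 266 counts in the knockdown library and 93 in the control library, and was the 1 called higher of 5 tested, with 0 called lower. BAG6, a further NKp30 ligand, was at -0.05 [-0.12 to 0.03] on 3244 counts in the knockdown library and 2414 in the control library. NECTIN2, which shares receptors with PVR, was at 0.52 [0.37 to 0.68], and ICAM1, the ligand of the integrin LFA-1, was at -0.52 [-0.61 to -0.43].

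Of 6 tested inhibitory ligands of NK cells, HLA-F was called higher at 0.90 [0.63 to 1.19] and 0 lower. For this and the next lists the shares over all tested genes were 12.2% higher and 11.7% lower. HLA-E, the ligand of NKG2A, was at 0.35 [0.27 to 0.43]. Of 11 B7 family genes 6 were tested, with NCR3LG1 lower and 0 higher, and 4 (CD80, HHLA2, VTCN1 and ILDR2) had 0 counts in both libraries. VSIR, a checkpoint ligand of this family, was at 0.50 [0.30 to 0.70]. Of 5 tested butyrophilins BTN3A1, which takes part in sensing by gamma-delta T cells, was called higher at 1.00 [0.61 to 1.41]. None of 5 tested nectins, PVR included, and none of 4 tested costimulators of the TNF family was called in either direction, with NECTIN1 at 0.11 [-0.01 to 0.23] and CD70 at 0.56 [0.16 to 0.97]. CD70 was called higher with total counts, upper quartile factors and deposited FPKM, at 0.59 to 0.60, and was at -0.04 after adjustment for size, GC content and abundance.

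Of 8 tested further checkpoint genes 2 were called higher and 0 lower, beside 12.2% and 11.7% of all tested genes. TNFRSF14 (HVEM, the ligand of BTLA) was called higher at 0.89 [0.49 to 1.30]. FGL1, a ligand of LAG-3, was called higher at 0.86 [0.07 to 1.75] on 46 counts in the knockdown library and 18 in the control library. CD47, the signal against phagocytosis, was at 0.24 [0.19 to 0.29]. Of 4 death receptors TNFRSF10A, a TRAIL receptor, was called lower at -0.73 [-0.88 to -0.57], and 0 higher.

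**Figure D5:**
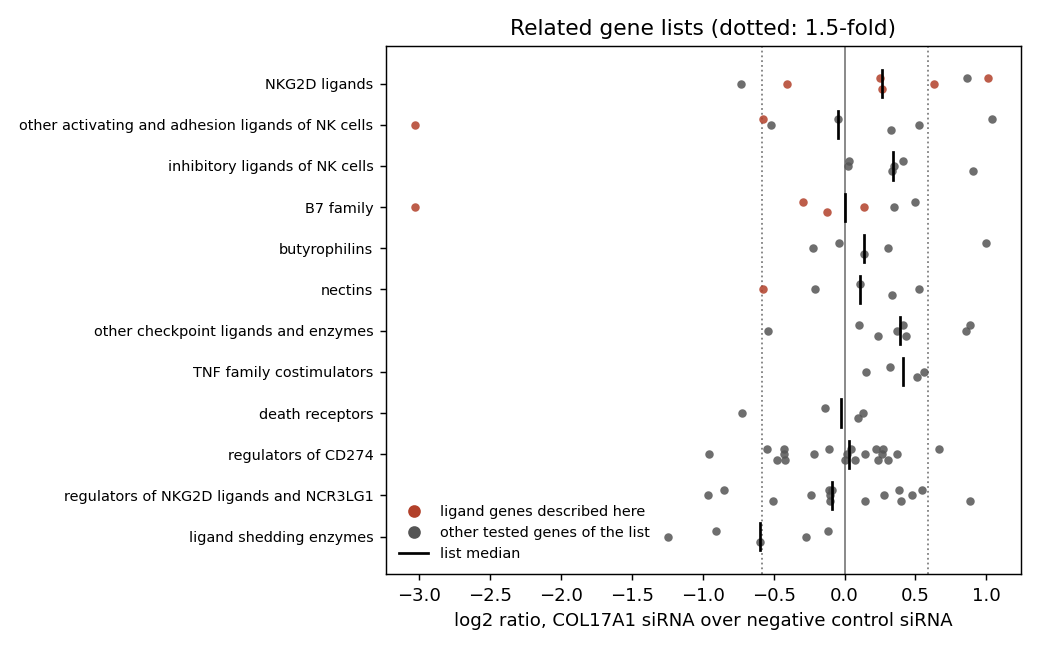
Log2 ratios (knockdown over control) of tested genes in 12 related lists, with the 10 ligand genes in red, other genes in grey, a black bar at each list median and dotted lines at 1.5-fold. The shedding enzymes have the lowest median, at -0.60, and NCR3LG1 stands apart in both lists that hold it.

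Enzymes that shed such ligands from the cell surface included ADAM17 and ADAM10 among the lower genes. Of 5 tested, 3 were called lower and 0 higher, beside 11.7% and 12.2% of all tested genes, with a median of -0.60. ADAM17, a sheddase of MICA, MICB and NCR3LG1, had 1078 counts in the knockdown library and 1842 in the control library, at -1.25 [-1.36 to -1.14]. ADAM10 had 2451 counts in the knockdown library and 3314 in the control library, at -0.91 [-0.98 to -0.83], and ADAM9 was at -0.60 [-0.65 to -0.54]. After adjustment for size, GC content and abundance these were at -0.79, -0.46 and -0.19, and ADAM17 alone of the 3 then reached 1.5-fold; ADAM9 also lay under it with total counts, upper quartile factors and deposited FPKM. The deposited exonic sizes of these genes, 15964, 15979 and 17704 bases, are long, and over all 13375 tested genes ratios were lower for longer genes (Spearman's rho of -0.39 across genes of the same 2 libraries, which are not independent replicates).

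Regulators of the ligands went both ways, and their calls stand beside 12.2% higher and 11.7% lower of all tested genes. Of 20 genes that act on CD274, HIF1A, the hypoxia-inducible factor subunit, was called lower at -0.96, with 8588 counts in the knockdown library and 11990 in the control library, and IRF1 higher, while CMTM6, which keeps the PD-L1 protein at the surface, was at -0.21 [-0.27 to -0.16]. Among 15 genes that act on NKG2D ligands or NCR3LG1, ATR, a DNA damage kinase, was called lower at -0.96 [-1.10 to -0.83] and DICER1, the microRNA processing enzyme, at -0.85 [-0.95 to -0.76]. After adjustment for size, GC content and abundance ATR and DICER1 were at -0.57 and -0.43, under 1.5-fold. MYC, which drives NCR3LG1 transcription, was at -0.11 [-0.15 to -0.07], and ATF4, an inducer of ULBP1, was at 0.14 [0.10 to 0.19].

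Genes next to the ligand loci were also read. The 10 loci had 18 distinct tested neighbours, 4 of them ligand genes themselves. ULBP2 and RAET1G were the 2 called higher, with 0 lower, beside 12.2% and 11.7% of all tested genes. PLGRKT beside CD274 was at 0.13 [-0.30 to 0.59], HCP5 between MICA and MICB at -0.03 [-0.40 to 0.34], DDX39B beyond MICB at -0.54 [-0.67 to -0.40] and NPTN beside CD276 at 0.12 [0.05 to 0.20].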

How the data were processed

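Polyadenylated RNA of 1 knockdown and 1 control library was sequenced in paired ends. The authors deposited a raw count per gene and library and, per the file headers, FPKM values beside them, which match, within 0.0050, each count divided by exonic size and library total. The submitters' processing notes name hg38, GRCh38, STAR, HISAT2 and edgeR without roles. The counting tool, its strand setting and its annotation are not named in the sources used here. Raw values were scaled with TMM (edgeR 4.0.16, R 4.3.3), 0.5 was added for log2 ratios, and exact Clopper-Pearson 95% intervals were computed (Python 3.11.15, scipy 1.17.1). A count of 0 allows up to 0.137 CPM in the knockdown and 0.190 CPM in the control library, taking 3 counts as the limit; intervals and limits cover counting error only, since PCR copies cannot be told from molecules. Adjusted ratios are residuals of medians over 20 classes of each property, and GC content was matched for 99.1% of tested genes. The interval, the call and the adjustment for size and abundance were tested on simulated counts that held counting error only. The word, stretch and promoter searches were not tested in this way.

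The members, lists, motifs, word and alternatives were chosen with earlier results of these data known. Named genes are the 10 ligands and up to 4 genes of each list past 1.5-fold, or else its most abundant gene. The neighbours of each locus and the genes nearest NCR3LG1 in ratio are named too. BAG6, NECTIN2, ICAM1, HLA-E, CD47, CMTM6, MYC, ATF4 and HSF1 were added after their values were seen or for their role. Some genes that this rule names are not reported here. The alternatives tried were size factors of DESeq2 1.42.0, upper quartile factors, total counts, an offset of 2, deposited FPKM with 0.1 added, no filter or 5 CPM, a 2-fold rule, an assumed coefficient of variation of 0.2 and the adjustments.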

Additional observations from a re-analysis of the deposited data

How the results depend on the processing

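NCR3LG1 stayed lower, from -3.05 to -2.54, and ULBP2 higher, from 0.60 to 1.05, under every alternative run, and both kept their call. MICA, at 0.41 to 0.67, kept its call under the other scalings, the offset of 2, FPKM and both filters, and lost it under the 2-fold rule, the coefficient of variation of 0.2 and both adjustments, which left 1 ligand gene higher in each of these 4. Lower ligand genes numbered 2 with DESeq2 size factors (PVR added), with adjustment for size and abundance (ULBP1 added) and with GC content added to it (PVR added). ULBP3 and CD276, called neither, changed sign to -0.05 each with GC content in the adjustment. The 10 higher and 9 lower genes of the lists became 2 and 2 under the 2-fold rule, and 5 were higher with the coefficient of variation. All tested genes called higher went to 407, 532, 1048 and 957, against 1636, under the 2-fold rule, the coefficient of variation, adjustment for size and abundance and the one with GC content, and those called lower to 481 and 715, against 1565, under the first and the second of these. COL17A1 was at -3.23 after adjustment for size and abundance. The adjustment with GC content was added after the data were seen. No paired analysis was possible because each group has 1 library. No library could be left out for the same reason. Depth limits NCR3LG1 most, with 31 counts in the knockdown library and the widest counting interval of the 10 genes.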
